A study of Mus musculus with 8 samples.

Results

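The collagen and laminin genes of the mouse testis were examined in whole-testis RNA of Sync-Spdya fl/fl (control) and Sync-Spdya cKO mice. Members were all protein-coding genes whose symbol is that of a numbered collagen alpha chain (Col, a number, a and a number) or of a numbered laminin alpha, beta or gamma chain, which gave 55 genes, 44 collagens and 11 laminins, of the 22046 protein-coding genes and 54532 genes measured. Both groups were C57BL/6J mice in which spermatogenesis had been synchronized, by an inhibitor of retinoic acid (RA) synthesis in neonatal pups followed by a single RA injection. Each group held 4 mice, with 1 library per mouse, collected at RA11.5, that is 11.5 days after RA was given, when most spermatocytes were in mid to late pachynema. All 8 mice carried Spdyafl/fl, in which loxP sites flank an exon of Spdya, the gene of a cyclin-like activator of CDK2, and all 8 received tamoxifen, at RA7.5 and RA8.5 per the labels, with slightly earlier times in the study's methods. Only the Sync-Spdya cKO mice also carried Ddx4-CreERT2 (labelled Spdyafl/fl;Ddx4-CreERT2), a tamoxifen-activated Cre driven in germ cells, so the effects of the transgene and of the deletion cannot be told apart and the somatic cells kept an intact Spdya.

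Collagens are trimeric proteins of the extracellular matrix. Fibrillar collagens build the fibres of the interstitium, fibril-associated collagens decorate them, and type VI collagen forms beaded filaments between fibres and basement membranes. Type IV collagen and laminin heterotrimers, each of an alpha, a beta and a gamma chain, polymerize into the sheet that underlies the seminiferous epithelium, where Sertoli and peritubular cells both contribute chains. Laminins with an alpha 3 chain and collagens VII and XVII belong to junctions that hold epithelia on that sheet, and laminin gamma 3 also occurs at the junctions between Sertoli cells and germ cells. In bulk testis, fewer cells of a type and less RNA per cell cannot be told apart.

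The deposited values are FPKM, fragment counts scaled for gene length and library size, in which levels of different genes can be compared per length. From 13978342 to 17867570 fragments on genes were recovered per control library and from 15494873 to 19583091 per Sync-Spdya cKO library. Spdya, summed over the whole gene, was at 19.7 to 23.8 FPKM in control and 17.7 to 30.5 FPKM in Sync-Spdya cKO testes, and a whole-gene value gives no check of the deletion of 1 exon. Control replicate 1 stood apart: mitochondrial genes took 0.464% of its fragments against 2.20 to 3.74% in the other 7 libraries. Among the members tested, its level was above all 3 other controls in 20 of 36 (55.6%) and over 1.5 times their mean in 15 (41.7%), whereas the shares among all genes tested were 41.9% and 15.1%. Counts over the members, and the values of several named members, are therefore given with and without this library. Not every member that it moved is given singly. Markers of the labelled tissue were present, with all 10 Sertoli and all 8 spermatocyte markers above a mean of 1 FPKM, and epididymal markers were near 0, with a summed level of at most 0.447 FPKM and Adam7 at 0 throughout.

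Levels of the members spanned a wide range. Col18a1, whose chain is the source of endostatin, had the highest mean of all members at 62.9 FPKM, ahead of Col1a1, Lamb2, Col1a2, Col3a1, Col4a1 and Col4a2 with means from 37.9 down to 20.9 FPKM. The fibril chains of types I and III and the basement membrane chains thus led together, and no junction member except Lamc3 reached a mean of 3 FPKM over the 8 libraries. The 36 members with a mean above 1 FPKM in both groups, 28 collagens and 8 laminins, were tested. Just inside this limit were Col14a1, with group means of 1.07 and 1.35 FPKM in control and Sync-Spdya cKO testes, and Col5a2, with 1.20 and 1.60 FPKM. Just outside were Col5a3, with 0.899 and 1.11 FPKM, and Col8a2, with 0.750 and 0.705 FPKM. The other 19 members rested on 0 to 230 fragments per library and 5 of them had a mean of at most 0.1 FPKM.

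**Figure D1:**
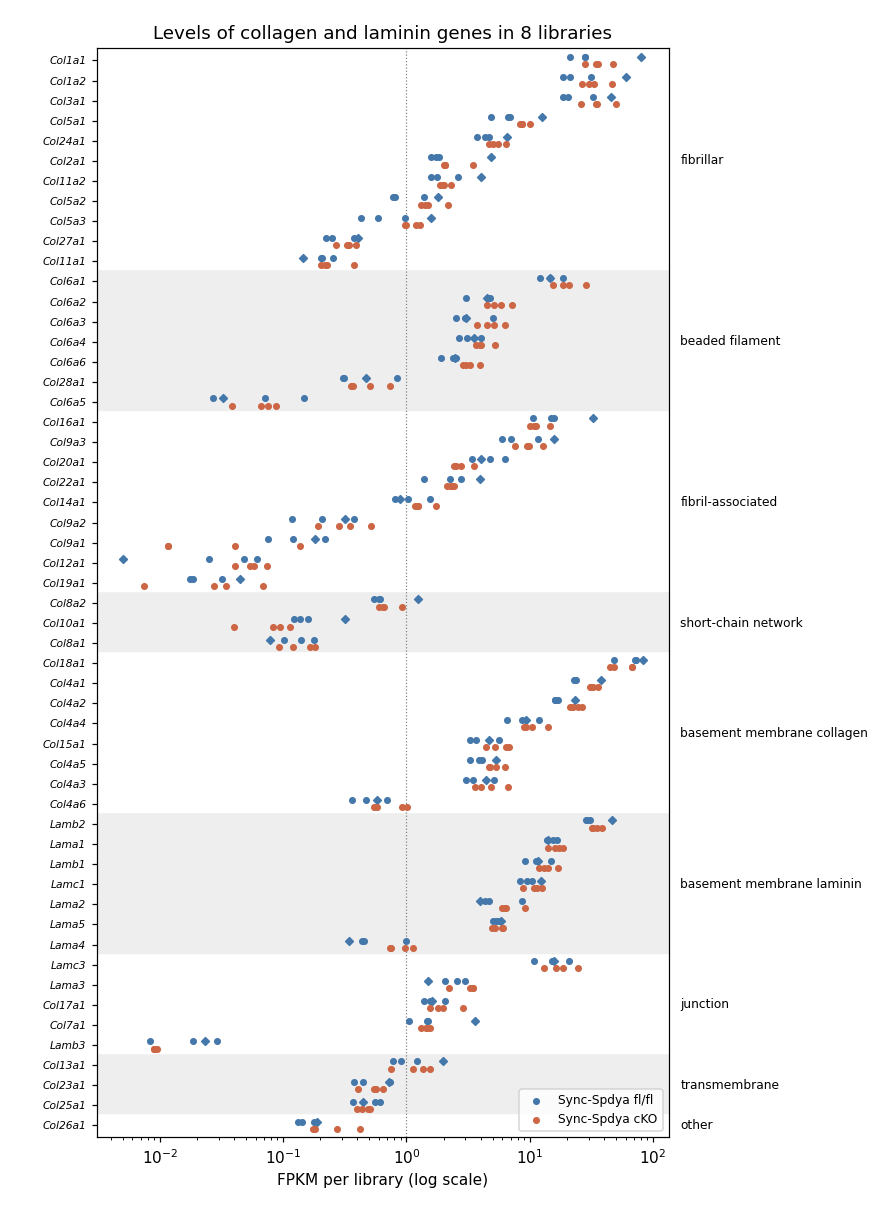
FPKM on a log axis of the members in the 4 Sync-Spdya fl/fl (blue) and 4 Sync-Spdya cKO (orange) libraries, grouped by matrix role, with control replicate 1 as a diamond and a dotted line at 1 FPKM. Col18a1, the type I and III chains, Lamb2 and the Col4a1/Col4a2 pair lie highest, and Lamb3, which was at 0 in cKO replicate 1 and is not drawn there, lies lowest.

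Of the 36 members tested, 0 were called changed between Sync-Spdya cKO and control testes (limma, Benjamini-Hochberg adjusted p under 0.05 over 12141 genes and an absolute log2 fold change over 1), where 0.0165% of all genes tested, 2 genes, were called. The smallest adjusted p of a member was 0.273. At an unadjusted limma p under 0.05 there were 6 members, 5 of them higher and 1 lower in Sync-Spdya cKO testes, which is 6 of 36 beside 10.9% of all genes tested, 5.89% higher and 5% lower. The 5 were Col6a6, Col4a2, Col6a3, Col6a1 and Col6a2, and the 1 was Col20a1. Log2 fold changes, on the log2(FPKM + 0.1) scale throughout, were above 0 in 30 of 36 members beside 52% of all genes, and their median was 0.24 beside 0.01 over all genes. In 1 member, Col6a6, every Sync-Spdya cKO library lay above every control library, and in 0 every one lay below, where 3.64% and 2.59% of all genes did so.

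These counts moved with single libraries. Without control replicate 1, 34 members were tested, since Col5a2 and Col13a1 no longer passed the limit on level, and 13 had an unadjusted p under 0.05, 12 higher and 1 lower, beside 9.66% and 5.9% of all genes. Their median was then 0.29, 31 lay above 0 beside 57.2% of all genes, and 9 had all Sync-Spdya cKO libraries above the 3 remaining controls beside 8.29%. The smallest adjusted p was 0.055, for Col4a1, so 0 members were called. The count at an unadjusted p under 0.05 became 3 of 36 without control replicate 2 (11% of all genes), 4 of 37 without control replicate 3 (7.11%), 12 of 36 without control replicate 4 (15%), 4 of 36 without cKO replicate 2 (7.58%), 3 of 36 without cKO replicate 3 (6.57%) and 2 of 36 without cKO replicate 4 (5.65%). The count without overlap became 9 of 36 without control replicate 4 (6 higher and 3 lower, beside 7.29% and 6.25% of all genes) and 4 of 36 without cKO replicate 1 (3 higher and 1 lower, beside 7.58% and 7.81%). In 18 of 36 members (50%) cKO replicate 4 was the highest of the 8 libraries, beside 13.6% of all genes tested. In 14 (38.9%) control replicate 1 was, which is near the 34.2% among all genes tested.

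**Figure D2:**
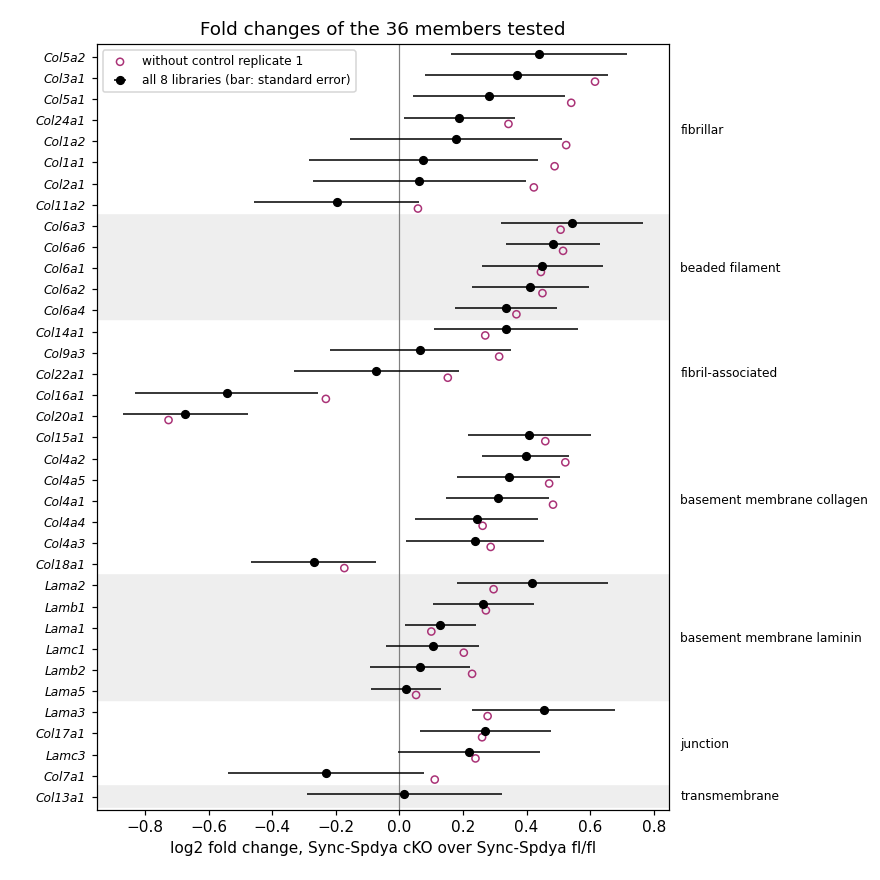
Log2 fold change (Sync-Spdya cKO over Sync-Spdya fl/fl) of the 36 members tested, with its standard error as a bar, from all 8 libraries (filled) and without control replicate 1 (open, 34 members), grouped by matrix role. All 5 type VI chains and all laminins lie above 0, Col20a1 and Col16a1 lie lowest, and the fibrillar chains move to higher values without that library.

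Type VI collagen, the beaded filament form, held 4 of the 6 members at an unadjusted p under 0.05. All 5 of its chains tested had log2 fold changes above 0, from 0.33 for Col6a4 to 0.54 for Col6a3, with a median of 0.45, but the smallest adjusted p among them was 0.287. The count of 4 (10.9% of all genes) was 2 without control replicate 1 (15.6%), 1 without control replicate 2 (11%) and 2 without control replicate 3 (7.11%). It was 2 without cKO replicate 2 (7.58%), 1 without cKO replicate 3 (6.57%) and 1 without cKO replicate 4 (5.65%). All 5 chains stayed above 0 in each of these. Col6a6, one of the long chains that can stand in the place of alpha 3, lies on chromosome 9 (GRCm38, chr9:105687809-105828160) in a row with Col6a5 and Col6a4. It was at 2.47, 2.54, 2.38 and 1.90 FPKM in control replicates 1 to 4 and at 3.29, 3.98, 3.04 and 2.87 FPKM in cKO replicates 1 to 4. The groups did not overlap, and the log2 fold change was 0.48 (SE 0.15, limma adjusted p = 0.287). Without control replicate 1 it was 0.51 (adjusted p = 0.169). Its RefSeq promoter is shown because it was the single member tested whose groups were apart. The 300 bases run from 250 before to 50 after the start of the RefSeq transcript (GRCm38.p6, minus strand, chr9:105828036-105828335), and capitals mark GGGCGG, the GC box bound by SP-family factors, on either strand.
Col6a6: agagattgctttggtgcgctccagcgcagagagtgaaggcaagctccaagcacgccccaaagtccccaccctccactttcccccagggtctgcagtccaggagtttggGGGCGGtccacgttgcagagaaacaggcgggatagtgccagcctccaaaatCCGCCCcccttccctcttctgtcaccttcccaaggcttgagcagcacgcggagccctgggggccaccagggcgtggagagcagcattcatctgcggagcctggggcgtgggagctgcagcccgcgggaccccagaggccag

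Col6a1 and Col6a2, the chains that type VI trimers share, are neighbours on chromosome 10. Col6a1 was at 14.7, 12.1, 14.6 and 18.7 FPKM in control and 15.4, 18.5, 21.0 and 28.3 FPKM in Sync-Spdya cKO testes, with overlap between the groups and the highest level in cKO replicate 4. Its log2 fold change was 0.45 (SE 0.19, adjusted p = 0.445). Col6a2 was at 4.52, 3.03, 4.78 and 4.59 FPKM in control and 4.50, 5.10, 5.85 and 7.19 FPKM in Sync-Spdya cKO testes. Control replicate 2 was the low one, cKO replicate 1 lay inside the control range, and the log2 fold change was 0.41 (SE 0.18, adjusted p = 0.457). Col6a3, the classical alpha 3 chain, was at 3.04, 2.51, 3.00 and 5.03 FPKM in control and 3.72, 4.52, 5.09 and 6.29 FPKM in Sync-Spdya cKO testes. Control replicate 4 was within the Sync-Spdya cKO range, and the log2 fold change was 0.54 (SE 0.22, adjusted p = 0.431). The ratio of Col6a1 to Col6a2 was between 3.06 and 4.08 over the 8 libraries, with overlap between the groups. That of Col6a3 to Col6a1 was 0.207, 0.208, 0.205 and 0.269 in control and 0.241, 0.245, 0.242 and 0.222 in Sync-Spdya cKO testes. Here the groups overlapped only through control replicate 4, whose ratio was the highest, and the other controls lay below every Sync-Spdya cKO library. Of the low members, Col28a1 was at 0.304 to 0.835 FPKM and Col6a5 at 0.0272 to 0.146 FPKM.

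Fibrillar collagens, the core of interstitial fibres, were where control replicate 1 weighed most. Col1a1, the main chain of type I collagen, was at 80.1, 28.1, 21.0 and 28.0 FPKM in control and 34.4, 28.1, 35.6 and 47.6 FPKM in Sync-Spdya cKO testes. Its log2 fold change was 0.08 (SE 0.36, adjusted p = 0.958), and -0.15 without control replicate 3. Without control replicate 1 it was 0.49 (adjusted p = 0.223). The groups were then only just apart, with control replicate 2 at 28.12 and cKO replicate 2 at 28.13 FPKM. Col1a2, its partner chain, was at 60.6, 18.6, 21.2 and 31.4 FPKM in control and 30.3, 26.5, 33.2 and 46.1 FPKM in Sync-Spdya cKO testes, with a log2 fold change of 0.18 (SE 0.33, adjusted p = 0.885) that became 0.52 (adjusted p = 0.276) without that library and -0.042 without control replicate 2. In both genes control replicate 1 was the highest of the 8 libraries. Col3a1, the type III chain that co-assembles with type I, was at 45.9, 18.7, 20.4 and 32.5 FPKM in control and 35.0, 26.3, 34.7 and 49.9 FPKM in Sync-Spdya cKO testes, with a log2 fold change of 0.37 (SE 0.29, adjusted p = 0.704) of 0.61 (adjusted p = 0.245) without control replicate 1 and of 0.18 without control replicate 2. The groups overlapped with and without control replicate 1.

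Over the 8 fibrillar members tested the median was 0.18, 7 lay above 0 and 0 had an unadjusted p under 0.05. Without control replicate 1 the median over 7 members was 0.49, and 5 had an unadjusted p under 0.05, beside 15.6% of all genes. The median was 0.085 with 4 of 8 above 0 without control replicate 2 and 0.077 with 6 of 9 above 0 without control replicate 3. The size and the share above 0 thus rested on single controls. The 1 fibrillar member below 0 was Col11a2, a chain known from cartilage, at 1.58 to 4.05 FPKM in control and 1.87 to 2.28 FPKM in Sync-Spdya cKO testes. Its log2 fold change was -0.20 (SE 0.26, adjusted p = 0.833), and 0.06 without control replicate 1. The ratio of Col1a1 to Col1a2 was between 0.891 and 1.51 and that of Col5a1 to Col5a2, chains of the type V collagen that regulates fibril width, between 4.67 and 8.52, with overlap between the groups. The Col1a2 promoter (GRCm38.p6, plus strand, chr6:4505368-4505667) is shown for the type I pair, with CCAAT, the box bound by NF-Y, and GGGCGG in capitals on either strand.
Col1a2: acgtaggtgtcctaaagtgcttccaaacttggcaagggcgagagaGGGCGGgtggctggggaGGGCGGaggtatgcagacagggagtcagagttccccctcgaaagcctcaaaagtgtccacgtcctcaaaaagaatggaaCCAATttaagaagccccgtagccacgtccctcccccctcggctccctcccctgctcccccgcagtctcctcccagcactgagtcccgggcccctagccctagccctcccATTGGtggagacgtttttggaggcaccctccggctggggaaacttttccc

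Fibril-associated collagens held the members with the lowest log2 fold changes. Col20a1, a little studied chain of this class (chr2:180986535-181018363), was at 4.02, 4.74, 6.31 and 3.39 FPKM in control and 3.53, 2.75, 2.53 and 2.44 FPKM in Sync-Spdya cKO testes. Only cKO replicate 1 overlapped the control range, being above control replicate 4. The log2 fold change was -0.67 (SE 0.20, limma adjusted p = 0.273), and -0.73 (adjusted p = 0.153) without control replicate 1. Of its exon bases, 1.54% are shared with 9230112E08Rik on the same strand, whose mean was 1.96 FPKM, so a small share of its fragments may be counted for either gene. Col16a1 was at 32.4, 14.9, 15.8 and 10.6 FPKM in control and 14.5, 11.2, 10.1 and 10.8 FPKM in Sync-Spdya cKO testes, with a log2 fold change of -0.54 (SE 0.29, adjusted p = 0.547) that was -0.23 (adjusted p = 0.526) without control replicate 1, the highest library. Col9a3, a chain of type IX collagen, was at 5.99 to 15.8 FPKM in control and 7.66 to 12.8 FPKM in Sync-Spdya cKO testes. Its log2 fold change was 0.07 (SE 0.28, adjusted p = 0.954), 0.31 without control replicate 1 and -0.15 without control replicate 4. Col9a3 shares 6.07% of its exon bases with Tcfl5 on the opposite strand, a germ cell gene at a mean of 72.8 FPKM, and whether strand was used in counting is not given in the sources used here, so its level is uncertain. Its partner chains were low, Col9a1 at 0.0116 to 0.218 FPKM and Col9a2 at 0.118 to 0.514 FPKM. The median of the 5 members tested was -0.07 with 2 above 0, 0.15 with 3 above 0 without control replicate 1, -0.32 with 1 above 0 without control replicate 3, and -0.46 over 4 members with 0 above 0 without control replicate 4.

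The Col20a1 promoter (GRCm38.p6, plus strand, chr2:180986285-180986584) is shown for the member with the smallest p. It held no CCAAT box, no match to GGGCGG and no TATAAA on either strand, with a GC content of 50% and 1 CpG, where the Col6a6 window held 65% and 14 CpG and the Col1a2 window 61% and 13 CpG.
Col20a1: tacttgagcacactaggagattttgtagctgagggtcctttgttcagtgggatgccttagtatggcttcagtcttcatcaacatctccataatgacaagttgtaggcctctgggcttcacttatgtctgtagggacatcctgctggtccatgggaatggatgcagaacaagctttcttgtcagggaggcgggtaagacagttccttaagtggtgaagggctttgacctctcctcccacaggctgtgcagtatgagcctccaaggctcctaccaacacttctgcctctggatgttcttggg
Among promoters of the same length, 44 of which belonged to 40 members, CCAAT was found on either strand in 31.8% of member promoters and 37.4% of all 32851. GGGCGG was found in 59.1% and 35.7%, and TATAAA in 11.4% and 13.6%. These motifs did not overlap each other in the windows shown, and a match is a run of letters and not a measured binding site.

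**Figure D3:**
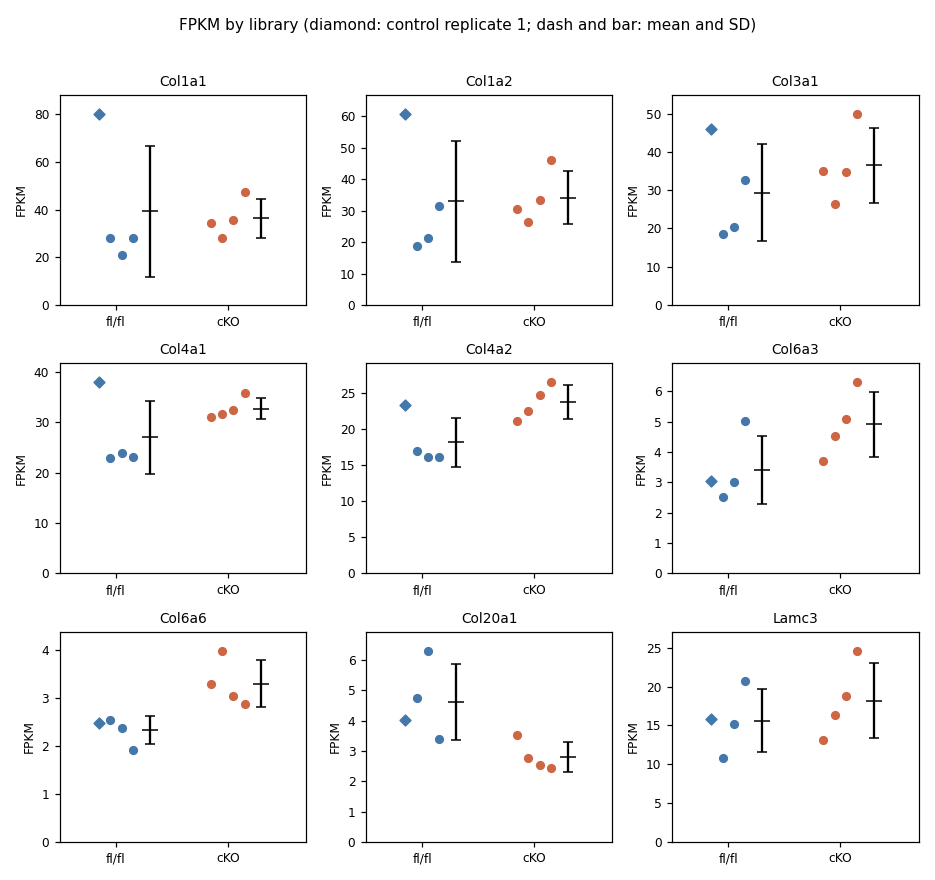
FPKM in each library of 9 members from the fibrillar, beaded filament, fibril-associated, basement membrane and junction roles, with the group mean and SD (n = 4) beside the points and control replicate 1 as a diamond. Control replicate 1 is the highest of the 8 libraries for Col1a1, Col1a2 and Col4a1, and the groups are apart for Col6a6.

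Basement membrane collagens were led by Col18a1 and the ubiquitous type IV pair. Col4a1 and Col4a2 lie head to head on chromosome 8 (chr8:11198423-11312826 and chr8:11312805-11449287) and their annotated starts overlap. Col4a1 was at 37.9, 23.0, 23.8 and 23.2 FPKM in control and 30.9, 31.7, 32.4 and 35.8 FPKM in Sync-Spdya cKO testes, so that the other 3 controls lay below all Sync-Spdya cKO libraries and control replicate 1 above them all. The log2 fold change was 0.31 (SE 0.16, limma adjusted p = 0.543), and 0.48 (adjusted p = 0.055) without control replicate 1. Col4a2 was at 23.3, 17.0, 16.2 and 16.1 FPKM in control and 21.1, 22.5, 24.8 and 26.4 FPKM in Sync-Spdya cKO testes. Here control replicate 1 lay among the Sync-Spdya cKO libraries, and the log2 fold change was 0.40 (SE 0.14, adjusted p = 0.343), with 0.52 (adjusted p = 0.0641) without it. The ratio of Col4a1 to Col4a2 stayed between 1.31 and 1.63 in all 8 libraries, with overlap between the groups.

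Both promoters of this pair are shown because the genes are transcribed in opposite directions from 1 shared region. The windows lie at chr8:11312777-11313076 on the minus strand and chr8:11312555-11312854 on the plus strand (GRCm38.p6) and have 78 bases in common. Capitals mark CCAAT and GGGCGG on either strand, and TATAAA was in neither. The windows held a GC content of 74% and 73.7%, with 37 and 33 CpG.
Col4a1: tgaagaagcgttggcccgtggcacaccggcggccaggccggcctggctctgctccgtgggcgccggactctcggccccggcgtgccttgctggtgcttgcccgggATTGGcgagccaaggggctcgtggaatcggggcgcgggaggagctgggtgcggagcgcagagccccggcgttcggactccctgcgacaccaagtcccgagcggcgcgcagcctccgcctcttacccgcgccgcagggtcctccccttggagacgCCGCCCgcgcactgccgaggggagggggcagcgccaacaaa
Col4a2: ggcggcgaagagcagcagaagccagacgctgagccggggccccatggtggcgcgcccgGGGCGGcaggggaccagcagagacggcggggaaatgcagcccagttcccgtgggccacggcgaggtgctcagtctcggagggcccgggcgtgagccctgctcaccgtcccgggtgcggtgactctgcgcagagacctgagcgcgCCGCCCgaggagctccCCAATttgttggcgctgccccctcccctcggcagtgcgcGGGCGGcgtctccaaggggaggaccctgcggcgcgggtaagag

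Col18a1 was at 82.6, 71.9, 72.2 and 48.5 FPKM in control and 44.7, 67.1, 67.4 and 48.6 FPKM in Sync-Spdya cKO testes. Both groups spanned low and high libraries, and the log2 fold change was -0.27 (SE 0.20, adjusted p = 0.674), the 1 value below 0 among the 13 basement membrane members tested. Col4a3 and Col4a4, whose chains join that of Col4a5 in a more cross-linked network, lie head to head on chromosome 1 with 72 bases between their starts. Their ratio was between 0.383 and 0.476, and their log2 fold changes were 0.24 (SE 0.22) and 0.24 (SE 0.19). Col4a5 and Col4a6 form the head-to-head pair of chromosome X, Col4a5 at 3.28 to 6.25 FPKM and Col4a6 at 0.361 to 1.01 FPKM, a ratio of 5.80 to 10.7. Over the 7 basement membrane collagens tested the median was 0.31, and 1 had an unadjusted p under 0.05. That count of 1 (10.9% of all genes) was 4 without control replicate 1 (15.6%) and 2 without cKO replicate 1 (12.8%). It was 3 without control replicate 4 (2 higher, 1 lower, beside 15% of all genes) and 0 without cKO replicate 4 (5.65%).

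Laminin chains of the basement membrane had log2 fold changes from 0.02 to 0.42, and 0 of 6 were called. Lamb2, the laminin beta 2 chain, was at 46.2, 30.7, 29.0 and 28.5 FPKM in control and 32.4, 35.0, 32.3 and 38.5 FPKM in Sync-Spdya cKO testes, with control replicate 1 the highest of all. The log2 fold change was 0.07 (SE 0.16, adjusted p = 0.915), 0.23 (adjusted p = 0.271) without that library and -0.0034 without control replicate 4. Lama1, the alpha chain of early basement membranes, was at 14.1, 15.5, 13.9 and 16.6 FPKM in control and 14.1, 17.4, 16.0 and 18.5 FPKM in Sync-Spdya cKO testes (log2 fold change 0.13, SE 0.11, adjusted p = 0.741), with overlap between the groups. Lamb1, the beta 1 chain, was at 11.7, 11.2, 9.08 and 14.9 FPKM in control and 11.9, 14.2, 13.1 and 16.9 FPKM in Sync-Spdya cKO testes. Its log2 fold change was 0.26 (SE 0.16, adjusted p = 0.606). Lamc1, the gamma chain of most laminins, had a log2 fold change of 0.10 (SE 0.15, adjusted p = 0.845) and 0.20 without control replicate 1, and the values were 0.02 (SE 0.11) for Lama5, an alpha chain of mature basement membranes, and 0.42 (SE 0.24, adjusted p = 0.578) for Lama2, the alpha chain best known from muscle, or 0.30 without control replicate 1. All 6 lay above 0 with a median of 0.12 and 0 had an unadjusted p under 0.05. That count was 1 without control replicate 1 (15.6% of all genes) and 2 without control replicate 4 (15%). Without control replicate 3, control replicate 4, cKO replicate 2 or cKO replicate 4, 5 of the 6 lay above 0. Relative to Lamc1, Lama1 was at 1.14 to 1.85, Lama5 at 0.474 to 0.677 and Lama2 at 0.320 to 0.829, so that Lama1 was the most abundant alpha chain in each library. Lamb2 was at 1.92 to 3.94 times the level of Lamb1, and the ratios overlapped between the groups.

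Junction members comprised a well expressed chain and a set of low ones. Lamc3, laminin gamma 3, was at 15.9, 10.8, 15.2 and 20.7 FPKM in control and 13.1, 16.4, 18.8 and 24.6 FPKM in Sync-Spdya cKO testes, which is 1.29 to 2.00 times the level of Lamc1 in the same libraries. The groups overlapped, with a log2 fold change of 0.22 (SE 0.22, limma adjusted p = 0.783). Lama3, an alpha chain of epithelial junctions, was at 1.50, 2.57, 2.04 and 3.00 FPKM in control and 2.23, 3.46, 3.29 and 3.44 FPKM in Sync-Spdya cKO testes. Only cKO replicate 1 fell inside the control range, and the log2 fold change was 0.45 (SE 0.22, adjusted p = 0.520), or 0.28 (adjusted p = 0.514) without control replicate 1, the lowest library. Lamb3, the laminin beta 3 chain, was scarce and rested on 0 to 3 fragments per library. In cKO replicate 1 Lamb3 had 0 fragments, which allows a level of up to 0.0234 FPKM, a limit of 3 fragments that covers counting error only. Col17a1, the transmembrane collagen of hemidesmosomes, was at 1.60, 2.06, 1.56 and 1.40 FPKM in control and 1.55, 2.87, 1.99 and 1.80 FPKM in Sync-Spdya cKO testes (log2 fold change 0.27, SE 0.20, adjusted p = 0.697). Col7a1, of the anchoring fibrils, was at 3.59, 1.51, 1.47 and 1.06 FPKM in control and 1.55, 1.44, 1.31 and 1.47 FPKM in Sync-Spdya cKO testes. Its log2 fold change of -0.23 (SE 0.31, adjusted p = 0.836) became 0.11 without control replicate 1.

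The remaining forms were low. Col13a1, a transmembrane collagen, was at 0.778 to 1.99 FPKM in control and 0.750 to 1.55 FPKM in Sync-Spdya cKO testes (log2 fold change 0.02, SE 0.31, limma adjusted p = 0.989, and -0.15 without control replicate 3). Col23a1 and Col25a1, of the same class, were at 0.379 to 0.734 FPKM and 0.366 to 0.613 FPKM over all libraries. The short-chain network collagens reached 1.24 FPKM in 1 library for Col8a2, at most 0.180 FPKM for Col8a1 and at most 0.317 FPKM for Col10a1, the chain of hypertrophic cartilage, which rested on 2 to 13 fragments. Col26a1 was at 0.133 to 0.418 FPKM.

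Interstitial, basement membrane and junction forms had like medians, 0.23 over 18 fibrillar, beaded and fibril-associated members, 0.24 over 13 basement membrane members and 0.24 over 4 junction members. The interstitial value pools unlike classes, with medians of 0.45 for beaded, 0.18 for fibrillar and -0.07 for fibril-associated members. Without control replicate 1 the medians were 0.42 over 17, 0.27 over 13 and 0.25 over 4 members. The interstitial median was 0.089 over 19 members without control replicate 3. The basement membrane median was 0.14 without control replicate 2 and 0.10 without cKO replicate 4. The junction median was 0.38 without cKO replicate 1 and 0.18 without cKO replicate 2. Summed over members, interstitial forms were at 305, 143, 137 and 168 FPKM in control and 184, 171, 190 and 243 FPKM in Sync-Spdya cKO testes, and basement membrane forms at 263, 205, 204 and 201 FPKM in control and 198, 236, 237 and 248 FPKM in Sync-Spdya cKO testes. Control replicate 1 was the highest library for both sums. The difference between the mean log2 levels of the interstitial and basement membrane members lay between -1.16 and -0.68 in control and between -1.11 and -0.87 in Sync-Spdya cKO testes, so the groups overlapped in the balance of the forms. No test was made of these summaries, because the members were chosen with results known.

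**Figure D4:**
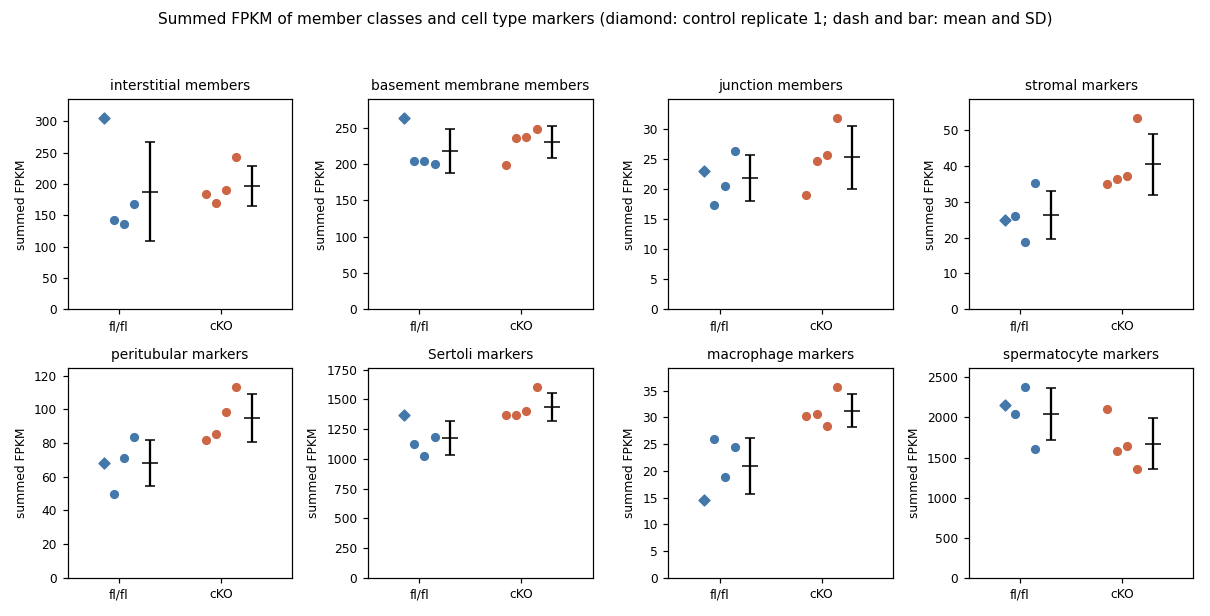
Summed FPKM per library of the interstitial, basement membrane and junction members and of 5 marker lists, with the group mean and SD (n = 4) beside the points and control replicate 1 as a diamond. Macrophage markers are apart between the groups (14.6 to 26.0 against 28.3 to 35.7 FPKM), whereas the member sums overlap.

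Summed levels of somatic cell markers, except the mesothelial ones, had higher means in Sync-Spdya cKO testes. Stromal markers (8 of 9 with a mean above 1 FPKM) summed to 18.9 to 35.1 FPKM in control and 35.0 to 53.1 FPKM in Sync-Spdya cKO testes, and peritubular markers (7 of 8) to 49.8 to 83.5 and 82.0 to 113 FPKM. Macrophage markers (6 of 7) summed to 14.6 to 26.0 and 28.3 to 35.7 FPKM, without overlap. The group mean was higher in Sync-Spdya cKO testes for 9 of 9 stromal, 7 of 8 peritubular and 7 of 7 macrophage genes. Sertoli markers (10 of 10) summed to 1027 to 1369 and 1365 to 1605 FPKM, a sum led by Clu with means of 823 and 1056 FPKM, while Gata1, Dhh and Rhox5 had means of 25.6 and 25.4, 11.7 and 11.5, and 6.11 and 5.84 FPKM. The sums ran for endothelial markers (6 of 7) from 9.81 to 15.9 and 15.8 to 20.3 FPKM, and for Leydig markers (4 of 6) from 16.5 to 37.9 and 28.6 to 46.7 FPKM. Spermatocyte markers (8 of 8) summed to 1605 to 2382 FPKM in control and 1355 to 2110 FPKM in Sync-Spdya cKO testes. The sum of the spermatogonial markers (6 of 6) was lower in every Sync-Spdya cKO library, at 64.8 to 86.1 and 55.4 to 61.5 FPKM, but 0 of the 6 genes had every Sync-Spdya cKO library below every control and 3 of 6 had a higher mean in Sync-Spdya cKO testes. Stra8 (means of 10.8 and 3.40 FPKM) and Id4 (32.0 and 24.1 FPKM) carried the lower sum. Stra8 was at 5.92, 4.53, 19.8 and 12.9 FPKM in control and 2.03 to 4.70 FPKM in Sync-Spdya cKO testes, with overlap. The higher control mean of Id4 rested on control replicate 1, at 56.1 FPKM. Its other controls were at 16.3 to 28.4 FPKM, which overlapped the 20.2 to 32.1 FPKM of Sync-Spdya cKO testes. The sum of the mesothelial markers (0 of 6 above 1 FPKM) was also lower in every library, at 1.40 to 1.62 and 0.646 to 1.18 FPKM, with 1 of 6 genes apart. Spermatid markers (1 of 6) summed to 1.87 to 3.32 and 2.18 to 2.68 FPKM. In control replicate 1 the stromal sum was 24.9 FPKM, inside the range of the other controls, and the Sertoli sum was 1369 FPKM, the highest of the controls. No marker of these lists was at 0 in all libraries except Adam7. The part of these cell types in the values of the members was not tested.

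Other genes of the matrix pathway, which fold, process, cross-link, bind or degrade collagens and laminins, were listed as 94 genes, of which 63 were tested. Of these 0 were called, and 22 had an unadjusted limma p under 0.05, all 22 higher in Sync-Spdya cKO testes (5.89% of all genes). The log2 fold change was above 0 in 56, beside 52% of all genes, with a median of 0.24. The count of 22 became 14 (13 higher, 1 lower) without control replicate 2 (11% of all genes), 12 without control replicate 3 (7.11%) and 27 without control replicate 4 (15%). It was 24 without cKO replicate 1 (12.8%), 14 without cKO replicate 2 (7.58%) and 12 without cKO replicate 3 (6.57%). Without cKO replicate 4 it was 7 (5.65%), and without control replicate 1 it was 19 (15.6%). In 6 of the 63 genes all Sync-Spdya cKO libraries were above all controls, beside 3.64% of all genes.

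Pcolce, the enhancer of procollagen C-proteinase, had the smallest p. It was at 12.3, 10.6, 10.2 and 13.1 FPKM in control and 17.2, 17.3, 18.7 and 23.9 FPKM in Sync-Spdya cKO testes, groups that did not overlap, with a log2 fold change of 0.73 (SE 0.13, limma adjusted p = 0.127). Of the genes that bind or sense the basement membrane, Sparc, a collagen-binding protein, was at 124 to 189 FPKM in control and 201 to 259 FPKM in Sync-Spdya cKO testes (log2 fold change 0.54, SE 0.16, adjusted p = 0.280). Itga3, an integrin alpha chain that binds laminins, was at 0.994 to 1.43 and 1.74 to 2.07 FPKM (0.66, SE 0.16, adjusted p = 0.183), and Itgb1, the beta chain it pairs with, was at 41.8 to 57.8 and 51.7 to 62.7 FPKM (0.18, SE 0.14, adjusted p = 0.683). Pxdn, the peroxidase that cross-links type IV collagen, was at 5.01 to 7.10 and 7.30 to 8.83 FPKM (0.35, SE 0.13, adjusted p = 0.353). Of the whole lists, 1 of 12 genes that partner basement membranes, 1 of 7 receptors and 1 of 3 cross-linking genes were without overlap. So were 1 of 3 processing, 1 of 14 interstitial, 1 of 9 degradation and 0 of 15 synthesis genes. All of these were higher, where 3.64% of all genes were. Each was named here as the gene with the smallest p of its list, so its separation is partly due to that choice. In the interstitial list Mgp, matrix Gla protein, was at 15.1 to 27.1 and 27.2 to 40.4 FPKM (0.60, SE 0.18, adjusted p = 0.287). Timp2, an inhibitor of matrix metalloproteinases, was at 39.2 to 48.2 and 48.8 to 62.6 FPKM (0.37, SE 0.12, adjusted p = 0.287). Serpinh1, the collagen chaperone HSP47, was at 11.1 to 19.0 and 16.8 to 21.3 FPKM (0.50, SE 0.17, adjusted p = 0.330) with overlap, and P4hb, a subunit of prolyl 4-hydroxylase, had group means of 99.0 and 94.0 FPKM (-0.05, SE 0.15, adjusted p = 0.933).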

How the data were processed

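RNA of whole testes was sequenced as paired ends, 1 library per mouse. The authors deposited FPKM values made by the sequencing company's software. The submitters' processing notes name GRCm38 (mm10), and the aligner, the counting tool and the use of strand are not given in the sources used here. The labels name a column kit and the study's methods Trizol for RNA extraction. Values times gene length were whole multiples of 1 fragment's worth in 100% of cases (tolerance 0.02), which gave the fragments. The library size implied by the FPKM was 0.938 to 1.05 times the recovered fragments on genes, and the reason was not tested.

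Genes were tested with limma 3.58.1 in R 4.3.3 (moderated by eBayes along the trend of mean level), comparing 4 with 4 libraries as log2(FPKM + 0.1). It covered the 12141 protein-coding genes whose mean exceeded 1 FPKM in each group, with Benjamini-Hochberg adjustment. The study used DESeq2 on counts, which were not analysed here. The procedure was checked on simulated data, with larger changes than those of the members and no library apart from the others. It therefore does not cover effects of the size seen here or a library like control replicate 1. Named genes were the 3 highest members of each role, up to 5 with the smallest p in each direction, the junction members, listed chain pairs, and per companion role the highest gene and that with the smallest p, and other members are named where a count or a filter singled them out. Members, lists and tests were chosen with earlier results of these data known. Promoters are RefSeq's, 40 of 55 members matched. Figures were drawn with matplotlib 3.10.9. The values of 1 member, which was among those not tested, are not reported here.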

Additional observations from a re-analysis of the deposited data

Results flagged for a closer look

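In each group of 4 libraries the gap between the most distant library and its nearest neighbour was compared with the group's range (Dixon's critical value 0.829). Of 103 such groups 12 passed, and chance gives about 1 in 20, here 5.15. In 8 of the 12 the distant library was control replicate 1. It was highest among the controls for Col1a1 at 80.1 FPKM (others 21.0 to 28.1), Col4a1 at 37.9 (23.0 to 23.8), Col4a2 at 23.3 (16.1 to 17.0), Lamb2 at 46.2 (28.5 to 30.7) and Col8a2 at 1.24 (0.544 to 0.613). Its summed level was also highest for all members, at 595 FPKM (364 to 398), and for the basement membrane members, at 263 FPKM (201 to 205). Its mitochondrial share was lowest, at 0.464% of fragments (2.97 to 3.39%).

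Control replicate 2 was lowest for Col6a2, at 3.03 FPKM (4.52 to 4.78). Control replicate 4 had the highest ratio of Col6a3 to Col6a1, at 0.269 (0.205 to 0.208). Among the Sync-Spdya cKO libraries, replicate 1 was lowest for Lama3, at 2.23 FPKM (3.29 to 3.46), and for Lamb3, at 0 FPKM (0.00891 to 0.00947), which is a difference of 1 fragment.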

How the results depend on the processing

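With 1 library left out at a time, 2 to 13 members and 7 to 27 companion genes had an unadjusted limma p under 0.05. The share of all genes at that p was 5.65 to 15.6%. Members without overlap numbered 1 to 9 and the median of the members was 0.16 to 0.33, while 0 members and 0 companion genes were called. Of all genes, 4.14 to 8.29% were then higher without overlap and 2.96 to 7.81% lower. The direction turned with 1 library left out in 7 members, with log2 fold changes of -0.15 to 0.49 for Col1a1, -0.042 to 0.52 for Col1a2, -0.38 to 0.058 for Col11a2, -0.15 to 0.20 for Col13a1, -0.15 to 0.31 for Col9a3, -0.45 to 0.11 for Col7a1 and -0.0034 to 0.23 for Lamb2. Under other settings the 233 values of 22 members kept their direction, and 0 met both the adjusted p and the fold threshold. The share of all genes above 0 moved with the scaling. Rescaled to TPM (FPKM set to the same sum per library), 31 of 36 members and 67.4% of all genes lay above 0, with medians of 0.32 and 0.088. A limit on mean level of 5 FPKM left 2 members and 12 companion genes at an unadjusted p under 0.05 (8.93% of all genes). It left 0 members without overlap, because fewer genes were tested, where 3.02% of all genes were higher without overlap and 1.9% lower. With a limit of 0.1 FPKM over all libraries, or with no limit, 2 members were without overlap, Col6a6 and Col10a1, the latter lower and on 2 to 13 fragments. These were 2 of 50 members beside 3.78% higher and 2.55% lower of all genes with that limit. With no limit they were 2 of 55 beside 3.25% and 2.25%. Weights per library, which put 0.161 on control replicate 1, gave 20 members at an unadjusted p under 0.05, a median of 0.39 and 35 companion genes, where 20.9% of all genes had that p and 57 were called. Adjusted p was then 0.032 for Col4a1, 0.0241 for Col4a2 and 0.0228 for Col20a1, which stayed under the fold threshold, so 0 members were called. Deviations of libraries with the same replicate number correlated at 0.288, 0.131, 0.0757 and 0.406, and with 1 of the 4 under 0.1 the pairing was left as undecided. With a replicate block, 12 members had an unadjusted p under 0.05 (10 higher, 2 lower) beside 14.6% of all genes, 1 was without overlap and 0 were called. Control replicates 1, 2 and 4 correlated best with the cKO library of their own number, and control replicate 3 with another (0.128). Fragments per gene limit the 19 members not tested.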
